A study of Mus musculus with 10 samples.

Results

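RNA of the major histocompatibility complex (MHC) class II presentation genes was examined in 10 CT26 tumors that were sampled before treatment. The genes are the classical chains H2-Aa, H2-Ab1 and H2-Eb1, the invariant chain Cd74, the transactivator Ciita, the peptide editors H2-DMa, H2-DMb1 and H2-DMb2, and the editor's inhibitor chains H2-Oa and H2-Ob. They were found by gene name, and all 10 were present among the 36009 rows of the count table and among the 16041 genes with enough counts to test. CT26 is a mouse colorectal carcinoma line, grown here under the skin of wild-type female BALB/c mice, and all tumors were untreated when they were resected. A hydrogel loaded with poly(I:C), a synthetic double-stranded RNA, was then placed on the residual tumor. Response was read from that residual tumor, and 6 mice whose tumors regressed completely were called responders (RS) and 4 mice with no delay in growth non-responders (NR). The labels of the groups are the same apart from the outcome that followed, and each library is bulk RNA from 1 tumor.

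Class II molecules carry peptides from endosomes to the cell surface, where CD4 T cells read them. Macrophages, dendritic cells and B cells make them constitutively or on activation, and many other cells, including some tumor cells, make them after exposure to interferon gamma (IFN-gamma). Alpha and beta chains pair in the endoplasmic reticulum with the invariant chain, which blocks the groove and directs the complex to endosomes. Cathepsins degrade the invariant chain to the CLIP peptide, H2-DM exchanges CLIP for antigen peptides, and H2-O restrains H2-DM. CIITA binds no DNA itself and acts through a complex of RFX, CREB and NF-Y factors that sits on the conserved X and Y boxes of class II promoters.

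Of these genes, 8 lie within the class II region of chromosome 17 on GRCm38, from H2-Oa (chr17:34092340-34095234) to H2-Eb1 (chr17:34305867-34316674). RefSeq promoter windows (GRCm38.p6, 250 bases before to 50 after the start) were found for 7 of the genes, with 8 entries since H2-DMa has 2, and H2-Ab1, Cd74 and Ciita had no entry. These windows are from the reference strain, whereas the tumors grew in BALB/c mice. The core of the Y box, CCAAT, which NF-Y binds, stood in 7 of the 8 windows on either strand, against 37.4% of 32851 promoters of the same length. In 6 windows it was read in the reverse orientation, as ATTGG, with its first base between 43 and 90 bases before the start. Counted in that orientation with the first base 100 to 40 bases before the start, a range chosen after the positions were seen, it occurred in 7.71% of all promoters. The remaining match, in the second H2-DMa window, began 198 bases before the start. The stretches from 120 to 21 bases before the start are shown for 4 genes, because they place this shared box in genes of different roles, with CCAAT or ATTGG and the X box core in capitals.
H2-Aa, chr17:34287844-34287943, minus strand: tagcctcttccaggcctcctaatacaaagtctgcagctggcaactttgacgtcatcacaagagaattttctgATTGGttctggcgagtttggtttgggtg
H2-Eb1, chr17:34305747-34305846, plus strand: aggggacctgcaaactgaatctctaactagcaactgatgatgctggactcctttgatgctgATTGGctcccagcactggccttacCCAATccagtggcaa
H2-DMb2, chr17:34145129-34145228, plus strand: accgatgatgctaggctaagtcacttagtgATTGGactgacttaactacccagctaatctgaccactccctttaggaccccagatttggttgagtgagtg
H2-Ob, chr17:34238785-34238884, plus strand: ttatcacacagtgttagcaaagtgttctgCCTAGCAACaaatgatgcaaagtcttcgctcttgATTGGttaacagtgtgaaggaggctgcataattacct

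The box lay 48 bases before the start in H2-Aa, 59 in H2-Eb1, 90 in H2-DMb2, 57 in H2-Ob, 61 in H2-DMb1 and 43 in H2-Oa, counted to the first base of ATTGG. The X box core, searched as CCTNGNNAC on both strands, was found in 2 windows, H2-Ob (91 bases before the start) and H2-DMb1 (98 bases before), against 15.8% of all promoters. These matches describe letters in short windows only. The search took exact matches, so a window without one is not shown to lack an X box. The reversed CCAAT was held at these distances by H2-Oa, the gene with the smallest change between the groups. The other genes just listed, with larger changes, held it too. H2-DMa had it only farther from the start, and H2-Ab1, Cd74 and Ciita had no window to search.

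Class II RNA was higher in responders than in non-responders before any treatment. The summed level of the 10 genes was 5392 to 10372 CPM (the count of a gene scaled to the TMM-adjusted size of its library) in responders and 1287 to 4551 CPM in non-responders. In edgeR's quasi-likelihood test with Benjamini-Hochberg adjustment over all genes tested, 8 of the 10 genes rose in responders (adjusted p under 0.05), against 4.71% of all genes tested higher and 8.06% changed in either direction. For 9 of the 10, every responder was above every non-responder, against 5.84% of all genes. The median log2 fold change of the 10 genes was 1.07, and that of all genes was -0.01. Libraries held 23374649 to 38042544 estimated counts, 29065126 or more in responders and 32986456 or fewer in non-responders. H2-Oa apart, no library had fewer than 48 counts of any of the 10 genes. In bulk tumors, fewer cells that carry class II and less class II RNA per cell cannot be told apart.

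**Figure D1:**
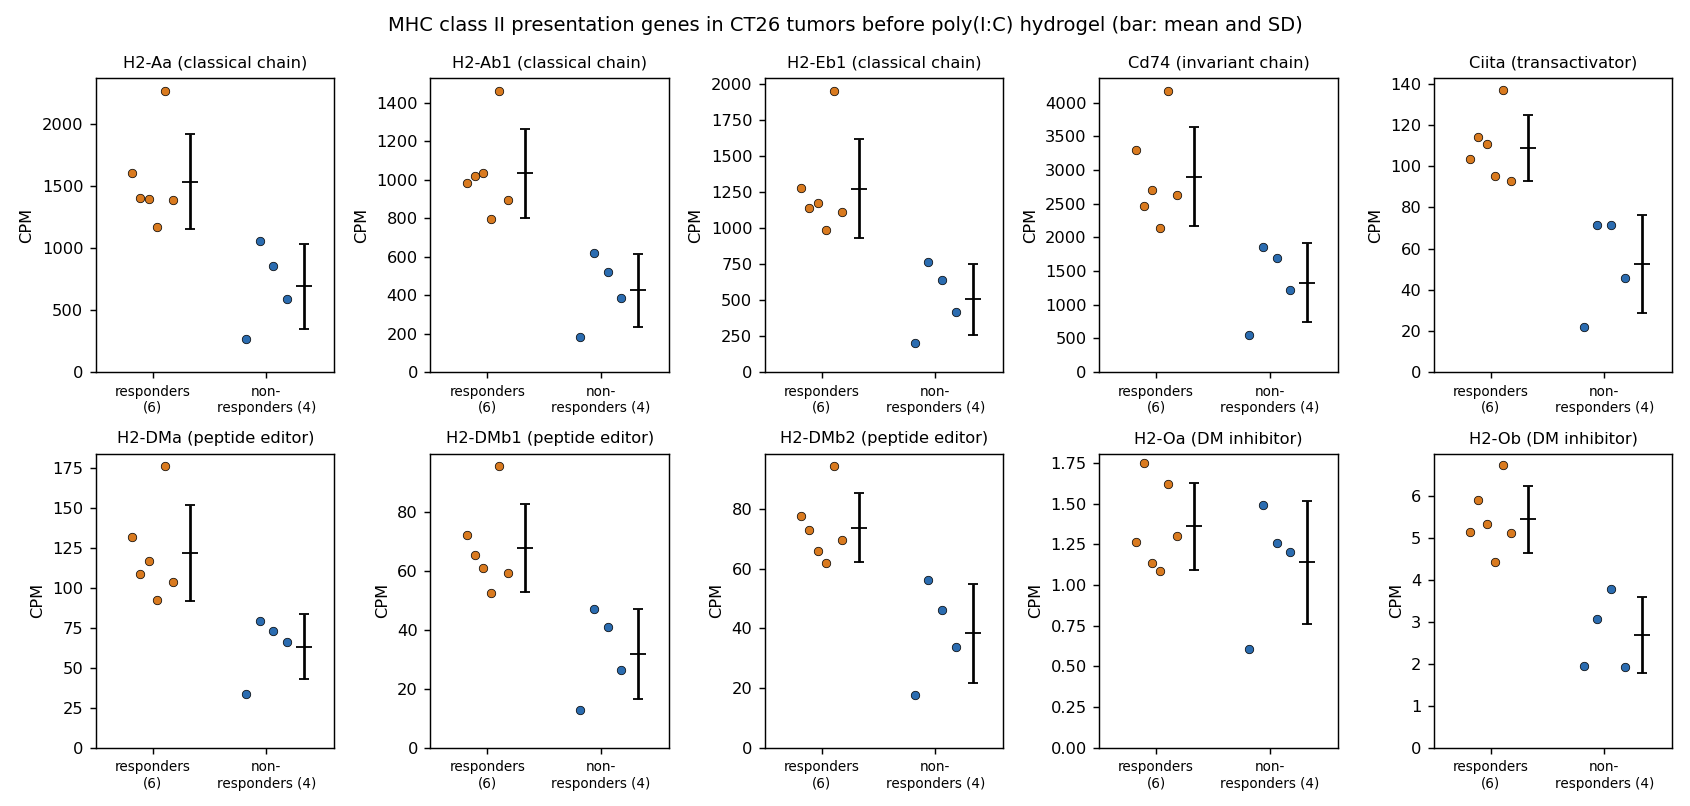
CPM (linear axis from 0) of each of the 10 genes in 6 responders (orange) and 4 non-responders (blue), 1 point per tumor, with the mean and SD as bars. The groups do not overlap in 9 panels, with responder 5 the highest point in each of these, and they overlap for H2-Oa, where responders span 1.09 to 1.75 CPM and non-responders 0.606 to 1.49 CPM.

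The classical chains form the peptide-binding dimers, I-A from H2-Aa and H2-Ab1 and I-E from H2-Eb1 with its alpha partner. H2-Ab1, the I-A beta chain, had 795 CPM in the lowest, 1004 in the median and 1463 in the highest responder. Non-responders 1 to 4 had 180, 621, 519 and 383 CPM. The groups did not overlap, and the gap between responder 4 and non-responder 2 was the narrowest point. H2-Ab1 rose 2.43-fold in responders (log2 fold change 1.28 with an SE of 0.29, edgeR adjusted p = 0.033). H2-Eb1, the I-E beta chain, ran from 988 over a median of 1154 to 1950 CPM in responders and was 199, 761, 639 and 419 CPM in non-responders 1 to 4. It had the greatest estimate among the 10 genes, a 2.52-fold rise (log2 fold change 1.34 with an SE of 0.33, edgeR adjusted p = 0.0372). H2-Aa, the I-A alpha chain, ranged from 1165 over a median of 1396 to 2265 CPM in responders and was 266, 1059, 855 and 587 CPM in non-responders 1 to 4. Although these values did not overlap either, H2-Aa missed the threshold at an edgeR adjusted p of 0.0509, with an estimate of 1.15 on the log2 scale and an SE of 0.32. The I-E alpha chain, H2-Ea, is outside the 10 genes. The reference strain carries a disabled H2-Ea allele, whereas BALB/c mice make I-E, and the row held 756 to 1427 CPM in responders against 172 to 676 CPM in non-responders (log2 fold change 1.14, edgeR adjusted p = 0.0495). H2-Eb2, a further beta chain gene, had at most 0.242 CPM and was not tested.

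Cd74 encodes the invariant chain and was the most abundant of the genes. Its level was 2136 CPM in the lowest, 2662 in the median and 4181 in the highest responder, and 553, 1852, 1690 and 1222 CPM in non-responders 1 to 4. It rose 2.18-fold in responders (log2 fold change 1.13 with an SE of 0.30, edgeR adjusted p = 0.0452). Cd74 made up between 38.6% and 43.9% of the summed CPM of the 10 genes in every tumor, although that sum ran from 1287 to 10372 CPM. Ciita, the transactivator on which class II transcription depends, ran from 92.7 over a median of 107 to 137 CPM in responders. In non-responders 1 to 4 it was 21.8, 71.3, 71.2 and 45.9 CPM, all below the lowest responder. Ciita rose 2.07-fold in responders (log2 fold change 1.05 with an SE of 0.27, edgeR adjusted p = 0.0423).

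H2-DM, made of H2-DMa with either H2-DMb1 or H2-DMb2, catalyzes the release of CLIP and edits the bound peptides. H2-DMa was 92.8 CPM in the lowest, 113 in the median and 177 in the highest responder, and 33.9, 79.6, 73.4 and 66.2 CPM in non-responders 1 to 4. H2-DMb1 was 52.8, 63.4 and 95.7 CPM in the lowest, median and highest responder, and 12.7, 47.1, 41.0 and 26.4 CPM in non-responders. H2-DMb2 was 61.9, 71.2 and 94.5 CPM in responders in the same order, and 17.6, 56.0, 46.0 and 33.8 CPM in non-responders. All 3 editor chains separated the groups, and non-responder 1 was the lowest tumor for each. The rises were 1.93-fold for H2-DMa (log2 fold change 0.95 with an SE of 0.23, edgeR adjusted p = 0.0387), 2.14-fold for H2-DMb1 (log2 fold change 1.10 with an SE of 0.30, edgeR adjusted p = 0.0472) and 1.92-fold for H2-DMb2 (log2 fold change 0.94 with an SE of 0.25, edgeR adjusted p = 0.0453). H2-DMb1 and H2-DMb2 are near copies, with 517 of their 31-base words shared, which is 31.4% of those of H2-DMb1 and 29.7% of those of H2-DMb2, so the division of reads between them is uncertain. H2-DMa overlaps Brd2 and antisense annotations, H2-Eb1 and H2-Oa each overlap an antisense gene, and Ciita overlaps Dexi on the opposite strand. Since the strand setting of the counting was not given in the sources used here, reads from such partners cannot be told apart.

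H2-Oa and H2-Ob form H2-O, which binds H2-DM and restrains it, and which is known mainly from B cells and some dendritic cells. Both were scarce, and they differed from each other. H2-Ob was 4.42, 5.23 and 6.74 CPM in the lowest, median and highest responder, and 1.94, 3.06, 3.77 and 1.93 CPM in non-responders 1 to 4. It rose 2.04-fold in responders (log2 fold change 1.03, SE 0.20) and had the smallest adjusted p of the 10 genes (edgeR adjusted p = 0.0264), on 48 to 241 counts per library. H2-Oa was 1.09, 1.29 and 1.75 CPM in responders in the same order, and 0.606, 1.49, 1.26 and 1.21 CPM in non-responders 1 to 4. Only responders 2 and 5 were above every non-responder for H2-Oa. Its estimate on the log2 scale, 0.25 with an SE of 0.24 (edgeR adjusted p = 0.519), was about as large as its error, on 15 to 58 counts per library.

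**Figure D2:**
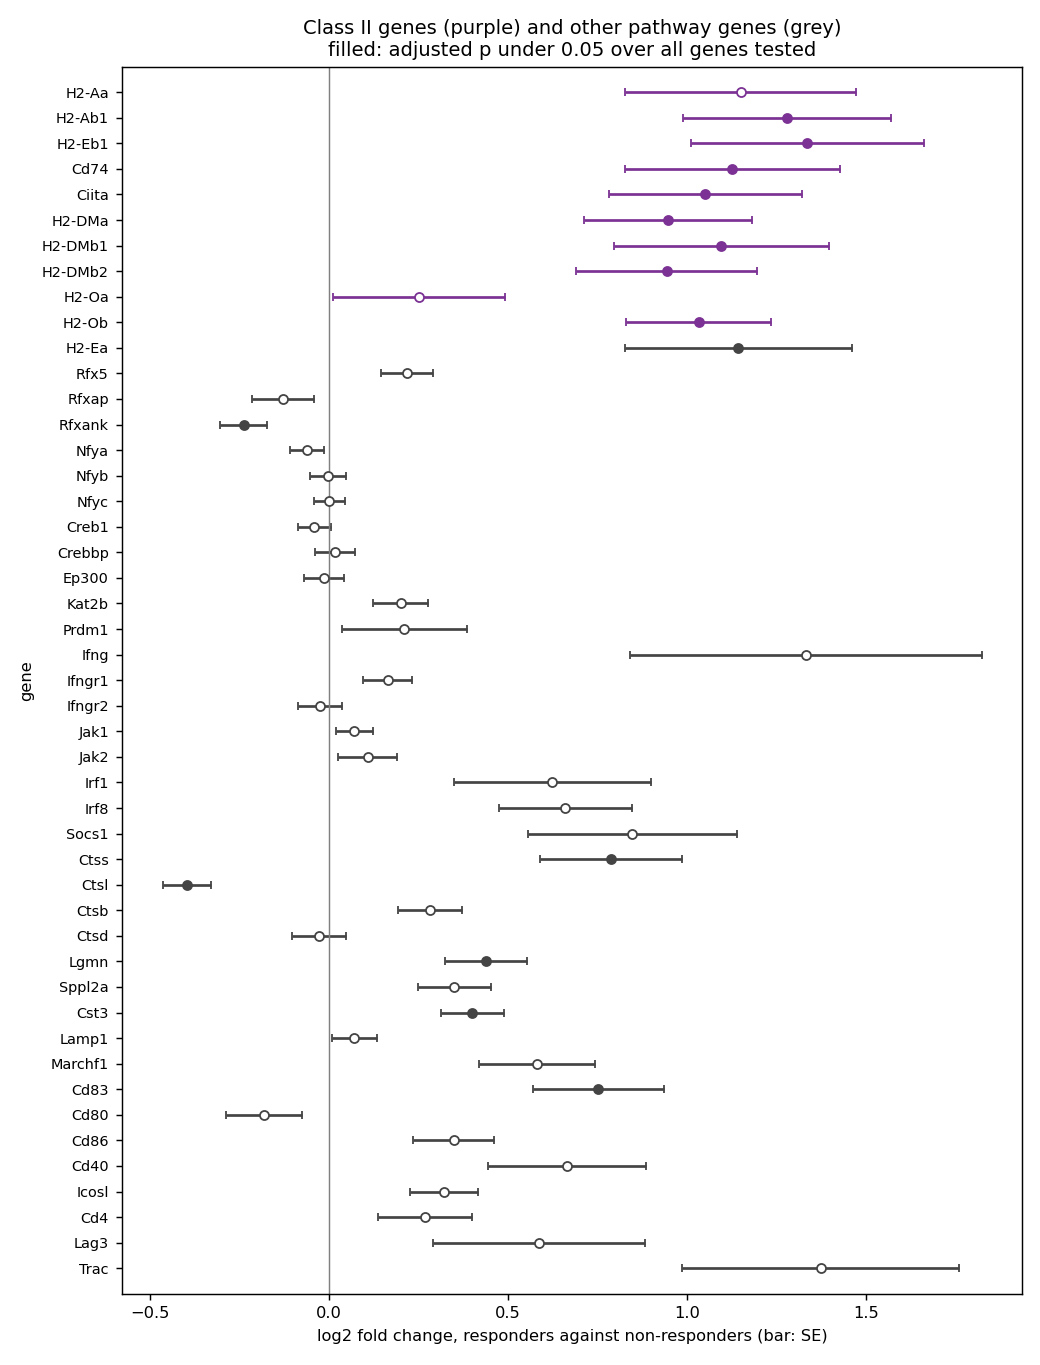
Log2 fold change of responders against non-responders (horizontal axis, bars show the SE) for the 10 class II genes (purple) and other pathway genes (grey), with filled points for an adjusted p under 0.05. The 10 class II genes lie between 0.25 and 1.34, and the DNA-binding factors and coactivators with which CIITA works (Rfx5 to Ep300) lie between -0.24 and 0.22.

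Tumors varied within each group as well as between them. Responder 5 was the highest tumor for 9 of the 10 genes, and responder 2 for H2-Oa. Non-responder 1 was the lowest for 9, and non-responder 4 for H2-Ob. Among responders, the highest tumor exceeded the lowest by 1.48-fold for Ciita to 1.97-fold for H2-Eb1. Among non-responders, it did so by 1.95-fold for H2-Ob to 3.99-fold for H2-Aa. Across the 45 pairs of the genes, Pearson's r of log2 CPM over the 6 responders had a median of 0.898, as a description over tumors that share each library's depth. The 36 pairs without H2-Oa ranged from 0.737 to 0.992, with H2-Aa and H2-Eb1 the most alike, and the 9 pairs with H2-Oa ranged from 0.428 to 0.833.

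Between genes, levels are compared per kilobase of merged exons. In responders, Cd74 had 1728 ± 437 CPM per kilobase (SD, n = 6), followed by H2-Ea with 938 ± 227, H2-Eb1 with 655 ± 178, H2-Aa with 404 ± 101 and H2-Ab1 with 402 ± 89.3. The editors were lower, with 42.2 ± 6.61 for H2-DMb2, 40.4 ± 8.98 for H2-DMb1 and 35.4 ± 8.69 for H2-DMa, then Ciita with 11.4 ± 1.69, H2-Ob with 1.01 ± 0.148 and H2-Oa with 0.967 ± 0.190. Non-responders were lower for each gene, with 792 ± 347 CPM per kilobase for Cd74 (SD, n = 4), 166 ± 74.2 for H2-Ab1, 18.3 ± 5.90 for H2-DMa and 0.497 ± 0.168 for H2-Ob. In every one of the 10 tumors Cd74 was above H2-Ea, H2-Ea above H2-Eb1, H2-Eb1 above H2-Aa, H2-Ab1 above the editors, and Ciita above H2-Oa. H2-Aa exceeded H2-Ab1 in 6 of the 10 tumors and H2-Oa exceeded H2-Ob in 5, and these differences were not tested. By group mean, H2-Oa was above H2-Ob in non-responders (0.811 ± 0.269 against 0.497 ± 0.168) and slightly below it in responders. By the longest transcript, H2-Aa exceeded H2-Ab1 in 0 tumors and H2-Oa exceeded H2-Ob in 1. The order depended on the length used, since by the longest transcript H2-Ab1 had rank 3 and H2-DMa rank 6 of these 11 genes. Counts were estimated on the reference genome, whereas the tumors grew in BALB/c mice. How far differences between the strains shift the level of 1 gene against another was not tested.

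Ratios between genes within a tumor ask whether the parts of the pathway kept their proportions, and do not depend on how libraries are scaled. There were 9 such ratios, each compared by an exact permutation of the group labels, two-sided, with 210 splits and a smallest possible p of 0.00476, with Benjamini-Hochberg adjustment over the 9, and 6 passed. The log2 ratio of the editor H2-DMa to the inhibitor chain H2-Oa was 5.95, 6.53 and 6.75 in the lowest, median and highest responder and 5.77, 5.72, 5.85 and 5.76 in non-responders 1 to 4. Every responder was above every non-responder, by 0.68 on average (exact permutation p = 0.0143, adjusted p = 0.0321). This difference restates the log2 fold changes of 0.95 for H2-DMa and 0.25 for H2-Oa, on 15 to 58 counts of H2-Oa per library. The ratio of H2-DMa to H2-Ob was not tested. With the other inhibitor chain, a shift was not detected, as the H2-DMb1 to H2-Ob log2 ratio was 3.62 ± 0.156 over the 6 responders (SD) against 3.46 ± 0.546 over the 4 non-responders (SD), with an exact permutation p of 0.6. The difference of that ratio was 0.16 with all tumors and between -0.09 and 0.32 when each tumor was left out in turn. H2-DMb1 gained slightly on H2-DMb2, by 0.18 (exact permutation p = 0.0286, adjusted p = 0.0429), although the division of reads in their shared sequence is uncertain. Without responder 3 or responder 5, 3 of the 9 ratios passed, and 0 did without non-responder 1, 2 or 4, where the smallest possible p is 0.0119.

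Among the chains themselves, neither of the 2 ratios passed the test with all tumors. The H2-Eb1 to H2-Ab1 log2 ratio was 0.29 ± 0.105 over the 6 responders (SD) against 0.22 ± 0.092 over the 4 non-responders (SD; exact permutation p = 0.248, adjusted p = 0.279). The Cd74 to H2-Ab1 log2 ratio was 1.48 ± 0.163 in responders and 1.64 ± 0.057 in non-responders (exact permutation p = 0.11, adjusted p = 0.141). Without responder 1, which had the highest value at 1.74, that difference was -0.21 (exact permutation p = 0.0159, adjusted p = 0.0286). Class II chain RNA per Ciita RNA was higher in responders, with an H2-Ab1 to Ciita log2 ratio of 3.23 ± 0.118 against 3.02 ± 0.11, a difference of 0.21 (exact permutation p = 0.019, adjusted p = 0.0343), and 5 of 6 responders were above every non-responder.

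**Figure D3:**
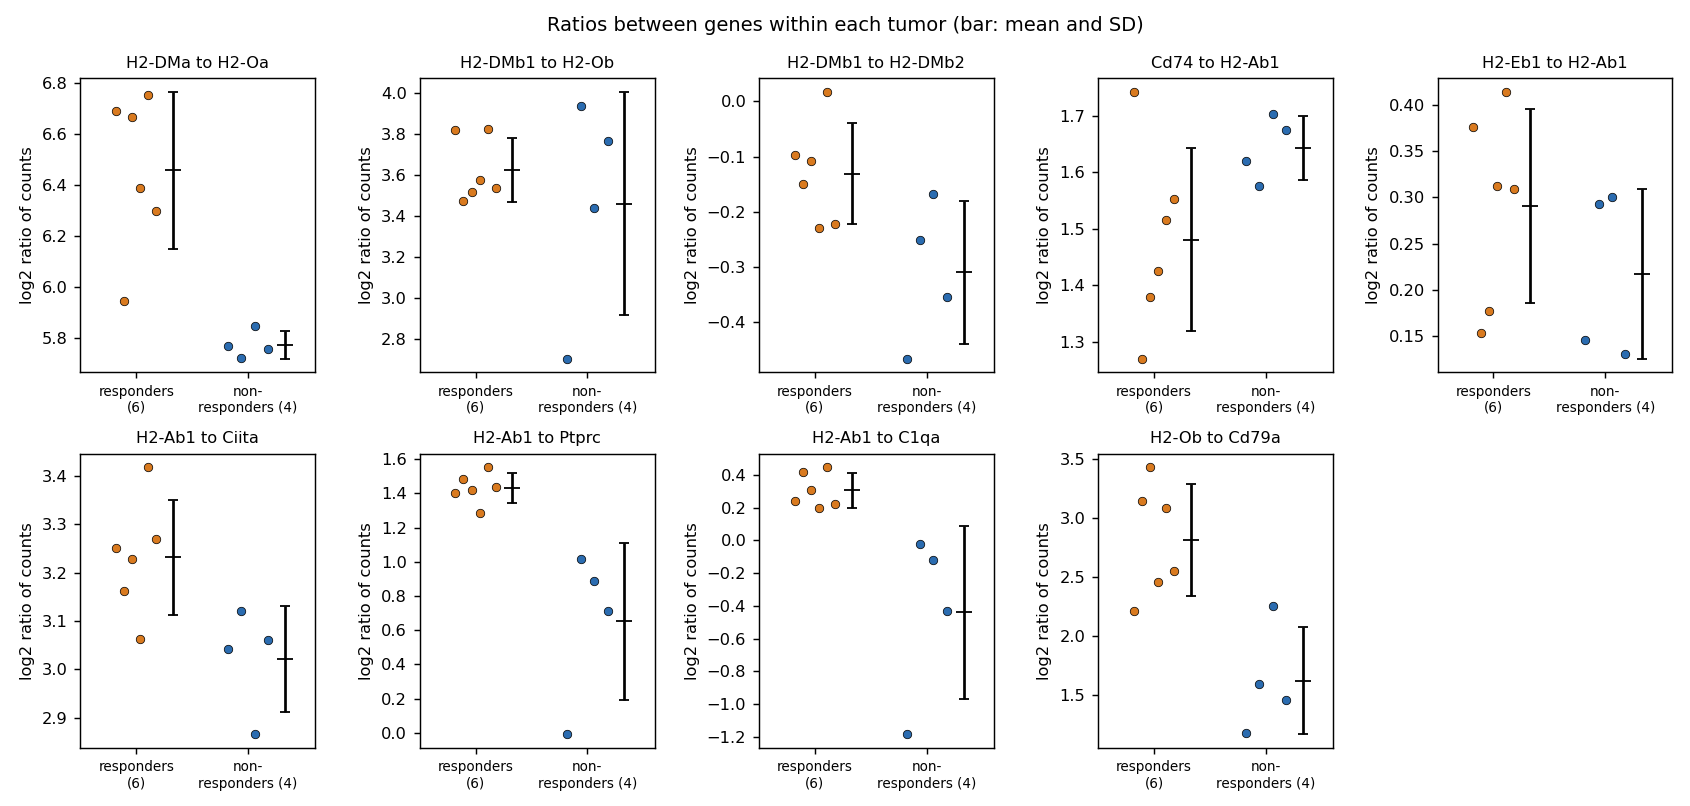
Log2 ratio of counts between the 2 genes named above each panel, 1 point per tumor for 6 responders (orange) and 4 non-responders (blue), with the mean and SD as bars. The vertical axes differ between panels and do not start at 0. For H2-DMa to H2-Oa, H2-Ab1 to Ptprc and H2-Ab1 to C1qa every responder lies above every non-responder, and for H2-DMb1 to H2-Ob the groups overlap.

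RNA of the cells that carry class II also differed between the groups. All 4 leukocyte genes (Ptprc, Itgb2, Coro1a and Laptm5) rose in responders, with log2 fold changes between 0.42 and 0.68. Of 8 macrophage genes, 6 rose, among them Adgre1, C1qa, C1qb, C1qc and Cd68, and the summed level of the list was 2653 to 3992 CPM in responders and 1652 to 2405 CPM in non-responders. Relative to RNA of Ptprc and of C1qa, H2-Ab1 RNA was higher in responders. The H2-Ab1 to Ptprc log2 ratio, against the pan-leukocyte gene that encodes CD45, was 1.29, 1.43 and 1.55 in the lowest, median and highest responder and -0.01, 1.01, 0.89 and 0.71 in non-responders 1 to 4 (difference 0.78, exact permutation p = 0.00476, adjusted p = 0.0214). The H2-Ab1 to C1qa log2 ratio, against a complement gene of tissue macrophages, was 0.20, 0.27 and 0.45 in responders and -1.18, -0.02, -0.12 and -0.43 in non-responders 1 to 4 (difference 0.74, exact permutation p = 0.00476, adjusted p = 0.0214). Both p-values are the smallest that this design can give. The outcome depends on the pair, as log2 fold changes were 1.28 for H2-Ab1, 0.60 for Ptprc and 0.65 for C1qa. They ran from 0.25 to 1.34 over the class II genes and from 0.03 to 0.87 over the macrophage genes. Other pairs of a class II gene with a leukocyte or macrophage gene were not tested. Such ratios cannot tell the number of cells from the RNA per cell. Without non-responder 1, the lowest tumor, the Ptprc and C1qa differences were still positive, and over all 10 omissions they ranged from 0.56 to 0.90 and from 0.50 to 0.88.

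Of the other marker lists, the monocyte gene Ly6c2, the T cell gene Cd8b1, the NK cell gene Klre1, the skeletal muscle genes Acta1 and Ckm and the dendritic cell gene Xcr1 rose in responders. All 5 T cell genes and all 4 NK cell genes had an unadjusted p under 0.05 by edgeR, with median log2 fold changes of 1.41 and 0.96. Counts at an unadjusted p, here and below, stand against 4665 of the 16041 genes tested that passed this cut. DESeq2 called 5 of the T cell genes and 3 of the NK cell genes, and limma-voom called 0 of either. Xcr1 marks cross-presenting dendritic cells, and its level was 4.23 to 8.31 CPM in responders and 1.70 to 3.21 CPM in non-responders (log2 fold change 1.46 with an SE of 0.25, edgeR adjusted p = 0.0222). Of 7 genes for conventional dendritic cells, Xcr1 was the only one called by edgeR and by limma-voom, and DESeq2 called 2. Log2 fold changes of these 7 ran from -0.34 to 1.46, with a median of 0.01 and 4 above 0. For mature and plasmacytoid dendritic cells, 0 of 4 and 0 of 3 genes were called by edgeR, DESeq2 or limma-voom (0 and 2 at an unadjusted p under 0.05). Over all lists, 16 of the 63 marker genes tested rose and 0 fell. The summed level of the 4 muscle genes was 316 to 1038 CPM in responders and 287 to 373 CPM in non-responders, and that of the 4 adipocyte genes was 17.3 to 73.2 against 8.54 to 23.4 CPM. By edgeR, 2 of the muscle genes were called and 0 of the adipocyte genes, although all 4 of the latter had an unadjusted p under 0.05 and were called by DESeq2, with 0 by limma-voom. The part of such tissue in the class II difference was not tested. Epithelial markers of the carcinoma line (Epcam, Krt8, Krt18 and Cdx2) summed to only 0.600 to 2.30 CPM over all tumors, with Krt8 and Krt18 at 0 in some, so the labelled carcinoma cells could not be followed by this list.

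B cells express class II and H2-O, yet their RNA was low in all tumors. The 7 B cell genes summed to 6.30 to 11.4 CPM in responders and 4.28 to 7.06 CPM in non-responders, and 0 of the 6 tested were called by edgeR (3 at an unadjusted p under 0.05, 2 called by DESeq2 and 0 by limma-voom). Cd79a, part of the B cell receptor, was 0.481, 0.788 and 1.10 CPM in the lowest, median and highest responder and 0.848, 1.01, 0.780 and 0.694 CPM in non-responders 1 to 4. H2-Ob rose relative to Cd79a, with a log2 ratio of 2.81 ± 0.473 over the 6 responders (SD) against 1.62 ± 0.455 over the 4 non-responders (SD; exact permutation p = 0.0143, adjusted p = 0.0321), on 14 to 33 counts of Cd79a per library. Cd79a was the 1 B cell gene of the 6 tested with an estimate below 0 (log2 fold change -0.09), the other 5 had log2 fold changes from 0.26 to 0.98, and the median of the list was 0.55. The ratio of H2-Ob to those other genes was not tested. Across the 10 tumors, no relation between the levels of H2-Ob and Cd79a was detected (Pearson's r = -0.147 with a permutation p of 0.681, rho = -0.224 with one of 0.537).

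In all, 4 relations between log2 CPM values were examined across tumors. H2-Ab1 followed Ciita within the 6 responders (r = 0.953, exact permutation p = 0.00694, adjusted p = 0.0194 over the 4, and rho = 0.886, exact permutation p = 0.0333). It followed C1qa there as well (r = 0.964, exact permutation p = 0.00972, adjusted p = 0.0194, and rho = 0.829, exact permutation p = 0.0583). Since responders and non-responders formed separate clusters on both genes of these pairs, no value is given over all tumors, and the non-responders alone, at 4, were below the 6 tumors set as a minimum. Ifng, which encodes the main inducer of Ciita, was 1.67, 2.85 and 4.89 CPM in the lowest, median and highest responder and 0.202, 1.87, 2.04 and 0.935 CPM in non-responders 1 to 4, so the groups overlapped. Over the 10 tumors Ciita rose with Ifng (r = 0.952, permutation p = 0.00011, adjusted p = 0.00022, and rho = 0.879, permutation p = 0.00177), and without non-responder 1 and responder 1, the tumors farthest from the median of Ifng, r was 0.914 (exact permutation p = 0.00203). Ciita itself did not overlap between the groups, so these pooled values include the difference between the groups. Among responders alone, the same pair gave r = 0.708 (exact permutation p = 0.106, adjusted p = 0.141, n = 6). Ifng had only 5 counts in non-responder 1, and without that tumor alone r was 0.852.

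**Figure D4:**
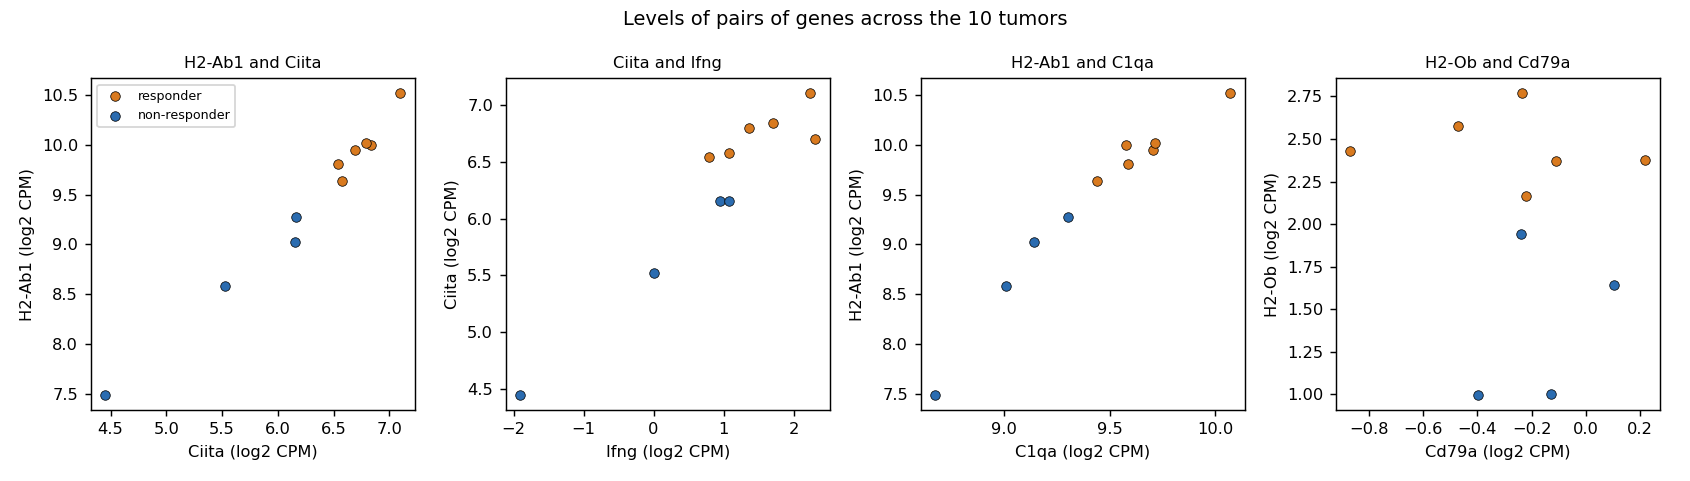
Log2 CPM of the 4 pairs of genes examined, 1 point per tumor for 6 responders (orange) and 4 non-responders (blue). H2-Ab1 lies along a line with Ciita and with C1qa and Ciita along one with Ifng, with non-responder 1 at the lower end, whereas the points of H2-Ob and Cd79a are scattered.

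Upstream of Ciita, 0 of 9 genes of the IFN-gamma axis were called by edgeR, with 6 at an unadjusted p under 0.05, 3 called by DESeq2, 1 by limma-voom and a median log2 fold change of 0.62. Those with the smallest p were Irf8, a myeloid transcription factor (log2 fold change 0.66 with an SE of 0.19, edgeR adjusted p = 0.0512), and Socs1, a feedback inhibitor of JAK signaling (0.85, SE 0.29, edgeR adjusted p = 0.0866). Ifng itself had a log2 fold change of 1.33 with an SE of 0.49 (edgeR adjusted p = 0.102). The DNA-binding factors and coactivators with which CIITA works, listed with the Ciita repressor gene Prdm1, had a median log2 fold change of 0.00 over 11 genes. Of these, Rfxank, a subunit of the RFX complex that binds the X box, fell from 13.7 ± 0.475 CPM in non-responders (SD, n = 4) to 11.6 ± 0.773 CPM in responders (SD, n = 6; log2 fold change -0.24 with an SE of 0.06, edgeR adjusted p = 0.0472). The 5 responders other than responder 6 were below every non-responder for Rfxank, and this call was kept in 1 of the 10 fits that each left out a tumor.

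In endosomes, 3 genes rose and 1 fell of the 8 tested. Ctss, the protease that removes the last part of the invariant chain in antigen-presenting cells, was 850 ± 168 CPM over the 6 responders (SD) against 492 ± 144 CPM over the 4 non-responders (SD), a 1.73-fold rise (log2 fold change 0.79 with an SE of 0.20, edgeR adjusted p = 0.0401). Ctsl, which does so in thymic epithelium and is secreted by many tumor cells, went the other way, from 1572 ± 97.4 CPM in non-responders to 1195 ± 94.4 CPM in responders, with every responder below every non-responder (log2 fold change -0.40 with an SE of 0.07, edgeR adjusted p = 0.0222). Lgmn, an asparaginyl endopeptidase that cleaves antigens and the invariant chain, rose by 0.44 on the log2 scale (SE 0.11, edgeR adjusted p = 0.0432), and the cathepsin inhibitor Cst3 by 0.40 (SE 0.09, edgeR adjusted p = 0.0317). Ifi30 was on the list but was not matched to a row by name, so it was not analysed here. Of 6 genes of class II surface turnover and costimulation, Cd83, which stabilizes class II at the cell surface, rose from 20.1 ± 5.47 to 33.9 ± 6.47 CPM (log2 fold change 0.75 with an SE of 0.18, edgeR adjusted p = 0.0372). Of the receptors that read class II, 0 of 3 tested were called by edgeR, with 1 at an unadjusted p under 0.05, 1 called by DESeq2 and 0 by limma-voom. Trac, a T cell receptor constant gene, had an edgeR adjusted p of 0.0514 (log2 fold change 1.37 with an SE of 0.39), and Cd4 one of 0.201 (0.27 with an SE of 0.13). Over the 38 pathway genes tested, H2-Ea included, 5 rose and 2 fell, with a median log2 fold change of 0.24.

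The genes most like the class II chains across the 10 tumors were ranked by Pearson's r with the mean standardized log2 CPM of H2-Aa, H2-Ab1, H2-Eb1 and Cd74, as a description over points that include the difference between groups. H2-Ea came first (r = 0.998 over 10 tumors and 0.988 within the 6 responders). It was followed by the Fc receptor gene Fcgr4 (0.994), the complement gene Cfb (0.994), Ly86, which encodes the MD-1 partner of RP105 (0.994), Sectm1a (0.994), Ctss (0.994), the integrin gene Itgb2 (0.992), the inhibitory receptor gene Lair1 (0.992), Gm44958 (0.991) and Shtn1 (0.990). Within responders these genes ranged from 0.907 for Gm44958 to 0.989 for Ctss. In all, 941 of the 16041 genes tested reached an r of at least 0.9. Among the 10 class II genes outside those that made the score, H2-DMb1 had 0.997, H2-DMb2 0.995, H2-DMa 0.988, Ciita 0.986, H2-Ob 0.926 and H2-Oa 0.790.

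Adjusted p-values of the class II genes lay close to the threshold, and single tumors decided the calls. With 1 tumor left out, 9 genes were called without responder 4 or without non-responder 2. Only 1 was called without responder 1, responder 5 or non-responder 3, 2 without responder 6, and 0 without responder 2, responder 3, non-responder 1 or non-responder 4. The number of all genes called moved with them, from 1293 with all tumors to between 0 without non-responder 4 and 1897 without non-responder 2. In each of the 10 fits, all 10 class II genes were higher in responders and 9 of them, without H2-Oa, had an unadjusted p under 0.05. That cut was passed by many genes, from 3654 of 16285 tested without non-responder 1 to 4965 of 16238 without non-responder 2. H2-Ob was called in 6 of the 10 fits, H2-Ab1 in 3, the other genes called with all tumors in 2 each, and H2-Aa in 2. Log2 fold changes over these fits were between 0.88 and 1.33 for Cd74, between 0.90 and 1.24 for H2-Ob, and between 0.05 and 0.41 for H2-Oa.

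**Figure D5:**
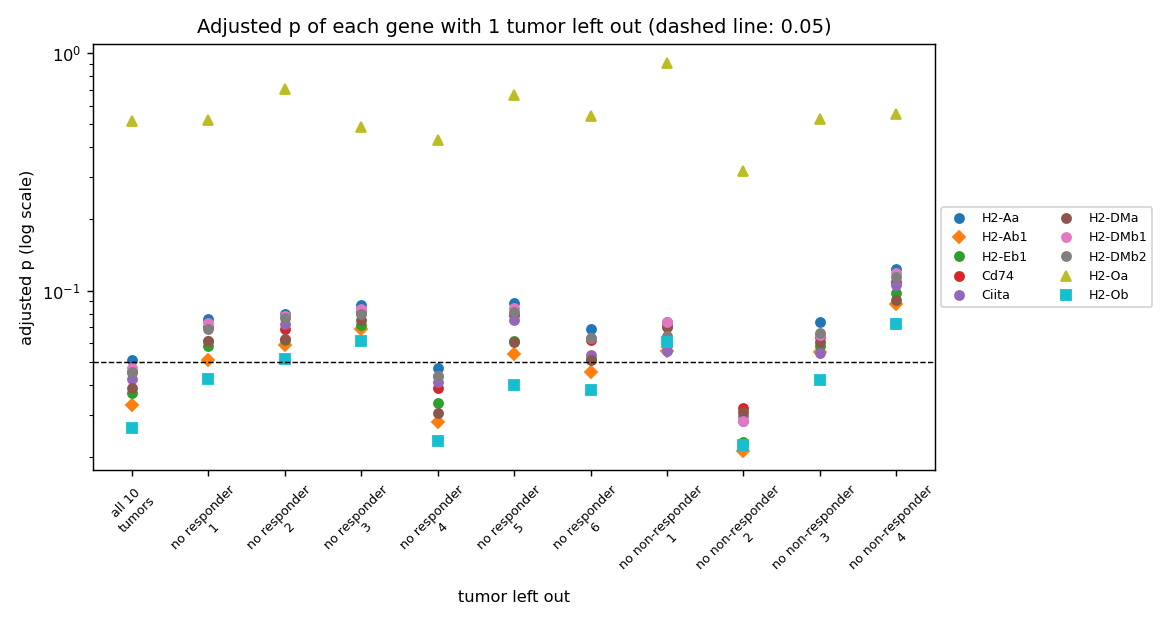
Adjusted p (edgeR, over all genes tested, log axis) of each class II gene with all 10 tumors and with each tumor left out in turn, with a dashed line at 0.05. Without responder 4 or non-responder 2, 9 genes lie under the line, and H2-Oa lies between 0.319 and 0.904 in every fit that leaves out a tumor.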

How the data were processed

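Paired-end polyA RNA sequencing had been done on 10 resected CT26 tumors. The authors estimated transcript abundance with kallisto on GRCm38 and summarized it to genes with tximport, and the deposited values are estimated counts (expected counts, 45.1% of them not whole) for 36009 genes. The annotation release, scaling option and strand setting are not given in the sources used here. Groups come from the response label, and tumors are numbered in accession order, which pairs no tumors. The labels give no batch.

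Counts were rounded and fitted with edgeR 4.0.16 in R 4.3.3 (filterByExpr with minimum count 10 and minimum total count 15, TMM, quasi-likelihood test, two-sided, Benjamini-Hochberg over all 16041 genes tested, threshold 0.05). Log2 CPM used a prior count of 2, and ratios added 0.5 counts. Each SE was taken as the size of the log2 fold change over the root of its F statistic. Lengths, overlaps and coordinates came from GENCODE vM21, which held 35912 of the identifiers, and 9633 rows had no gene name and stayed in the fit. Exact permutation tests covered the 210 splits, and relations over 10 tumors used 100000 permutations (SciPy 1.17.1). Relations over 10 tumors were adjusted over the 2 that had such a value, those within responders over 4. p-values set differences and relations against the variation between these tumors, and counts cover reads without molecular identifiers. Depth was 23374649 to 38042544 estimated counts per tumor.

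The 10 genes, the pathway and marker lists, the ratios and the relations were chosen with earlier results of these data known. The text names all 10 genes, every listed gene with an adjusted p under 0.05, the 2 of smallest p in a pathway list with none, the 10 genes most like the class II chains, and Ptprc, C1qa, Cd79a and Ifng, except for items not reported here. H2-Eb2, Brd2, Dexi, Prdm1 and the epithelial markers were named after their values were seen. Ifi30, also named outside this rule, had no value. Alternatives were RLE size factors, library size alone, DESeq2 1.42.0, limma-voom (limma 3.58.1), no filter, at least 1 CPM in at least 4 tumors, and each tumor left out. The scripts were tested on simulated data.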

Additional observations from a re-analysis of the deposited data

Results flagged for a closer look

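Rfxank, a subunit of the RFX complex on class II promoters, had 1 responder far from the other 5. Responder 6 had 13.1 CPM, against 10.9 to 11.6 CPM in the others and 13.1 to 14.2 CPM in the non-responders, and its gap to the nearest responder was 0.642 of the range of that group, above Dixon's critical value of 0.625 for 6. Of 102 combinations of a gene or within-tumor ratio with a group examined on the log2 scale this was the only one past the critical value, where chance gives about 5.1. On the linear scale 7 combinations were past it. They were Rfxank in responder 6, and H2-Ab1, H2-Eb1, H2-Ea, Ctss, Ptprc and Adgre1 in responder 5.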

How the results depend on the processing

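The count of class II genes called was 8 with RLE size factors and with library size alone, and 9 with DESeq2, limma-voom, no filter on low counts or the stricter filter, and all 10 estimates were higher in responders under each. DESeq2 called 2602 of all genes in place of 1293 and 51 pathway and marker genes in place of 23. With each tumor left out in turn, the class II genes called ranged from 0 to 9, the pathway and marker genes from 0 to 36, all genes from 0 to 1897, the within-tumor ratios past the threshold from 0 to 6 and the relations over all tumors from 1 to 1. Ratios dropped to 3 without responder 3 or responder 5 and to 0 without non-responder 1, 2 or 4. The difference of the H2-DMb1 to H2-Ob ratio turned from 0.16 to -0.088 without non-responder 1 and reached 0.323 without non-responder 2, and the correlation of H2-Ob with Cd79a turned from -0.147 to 0.0286 without responder 3 and was -0.318 without non-responder 4, none of these being past the threshold. The causes were not tested. No paired analysis was possible because replicate numbers were given in accession order and pair no tumors. Low counts limit the precision of H2-Oa (15 to 58 per library), Cd79a (14 to 33) and Ifng (5 to 166).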
